A study of Mus musculus with 18 samples.

Results

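Genes of the Wnt pathway were followed in the mouse heart after a single high dose of radiation. They were taken as the genes whose symbol is Wnt, Fzd, Sfrp or Dkk followed by a digit, together with Axin1, Axin2, Lrp5, Lrp6, Ctnnb1, Lef1, Tcf7, Tcf7l1, Tcf7l2, Rnf43, Znrf3 and Wif1, and a level of at least 0.23 CPM (counts scaled to the size of the library) in at least 6 mice was required. Of 49 genes with such a symbol 38 reached this level, among 15054 of the 30072 listed genes that did. RNA was sequenced from 18 CD-1 mice, an outbred strain, in 3 groups of 6: controls, a 2-week group and a 6-week group, both given 25 Gy to the heart. All mice were wild type, of both sexes and at least 8 weeks old. By the sample labels the tissue was septum, the radiation was gamma and controls were anesthetized but untreated, whereas the study's methods describe ventricles, X-rays and sham treatment. The tissue was sequenced in bulk, so fewer cells of a type and less RNA per cell cannot be told apart in any value below.

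Wnt proteins are secreted, lipid-modified ligands that bind frizzled receptors (Fzd) and the co-receptors Lrp5 and Lrp6. Without a ligand, a destruction complex built on Axin marks beta-catenin (Ctnnb1) for degradation, and with a ligand beta-catenin accumulates and works with the nuclear TCF/LEF factors on target genes, whereas beta-catenin-independent branches act on cell polarity and calcium. Secreted Sfrp, Dkk and Wif1 proteins hold the pathway back outside the cell, and the membrane ubiquitin ligases Rnf43 and Znrf3 remove frizzled receptors from the cell surface. The pathway patterns the developing heart, is quiet in most adult heart muscle, and is known to be re-employed after cardiac injury.

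Estimated counts summed to between 11522979 and 15501002 per mouse (median 13682439), and a floor of 3 counts corresponded to between 0.194 and 0.26 CPM, which covers counting error only. Cardiomyocyte markers summed to between 24600 and 34500 TPM (a relative transcript level scaled for transcript length) over all mice, and 7 of 8 were lower at 6 weeks than in controls. Macrophage markers summed to between 102 and 366 TPM in controls, 247 and 333 TPM at 2 weeks and 394 and 566 TPM at 6 weeks, where 7 of 8 were higher. Genes of the atrium and the septum border (Myl7, Sln, Nppa and Scx) summed to 310 to 2440 TPM in controls, 245 to 2400 TPM at 2 weeks and 133 to 1330 TPM at 6 weeks, and 0 of 4 were called against controls. This sum mainly follows Nppa, with a mean of 659 TPM over the 18 mice. The means of Myl7, Sln and Scx were 113, 55.6 and 6.63 TPM. Whether the sum tracks the amount of atrial or border tissue was not tested. In each group 3 mice carried fewer than 30 Y-linked counts, and with Y-linked expression as a covariate the counts of called members were the same.

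Among the 38 members, beta-catenin, the co-receptors and Fzd4 had the highest levels, above all ligands. By mean TPM over the 18 mice, Ctnnb1 was the most abundant member at 151 TPM. Among receptors, Lrp5 (17.9 TPM), Lrp6 (15.4 TPM) and Fzd4 (12.2 TPM) led, followed by Fzd6 (5.47 TPM), Fzd1 (3.58 TPM), Fzd8 (3.22 TPM), Fzd7 (3.06 TPM), Fzd2 (2.39 TPM), Fzd5 (1.64 TPM), Fzd9 (1.27 TPM) and Fzd3 (0.836 TPM). The most abundant ligand, Wnt5a, reached 2.98 TPM, and Wnt11 (2.59 TPM), Wnt9a (1.75 TPM), Wnt5b (1.57 TPM) and Wnt2b (1.17 TPM) followed, while the other 7 tested ligands were at 0.405 TPM or lower. Of the inhibitors, Wif1 (9.07 TPM) and Dkk3 (8.94 TPM) stood above Sfrp2 (4.18 TPM) and Sfrp1 (3.8 TPM), and Sfrp5, Sfrp4 and Dkk2 were each under 0.5 TPM. Axin1 averaged 7.57 TPM, Axin2 1.99 TPM and Znrf3 2.66 TPM. The TCF/LEF factors ranged from 11.5 TPM for Tcf7l2 and 6.37 TPM for Tcf7l1 down to 0.41 TPM for Tcf7 and 0.15 TPM for Lef1.

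**Figure D1:**
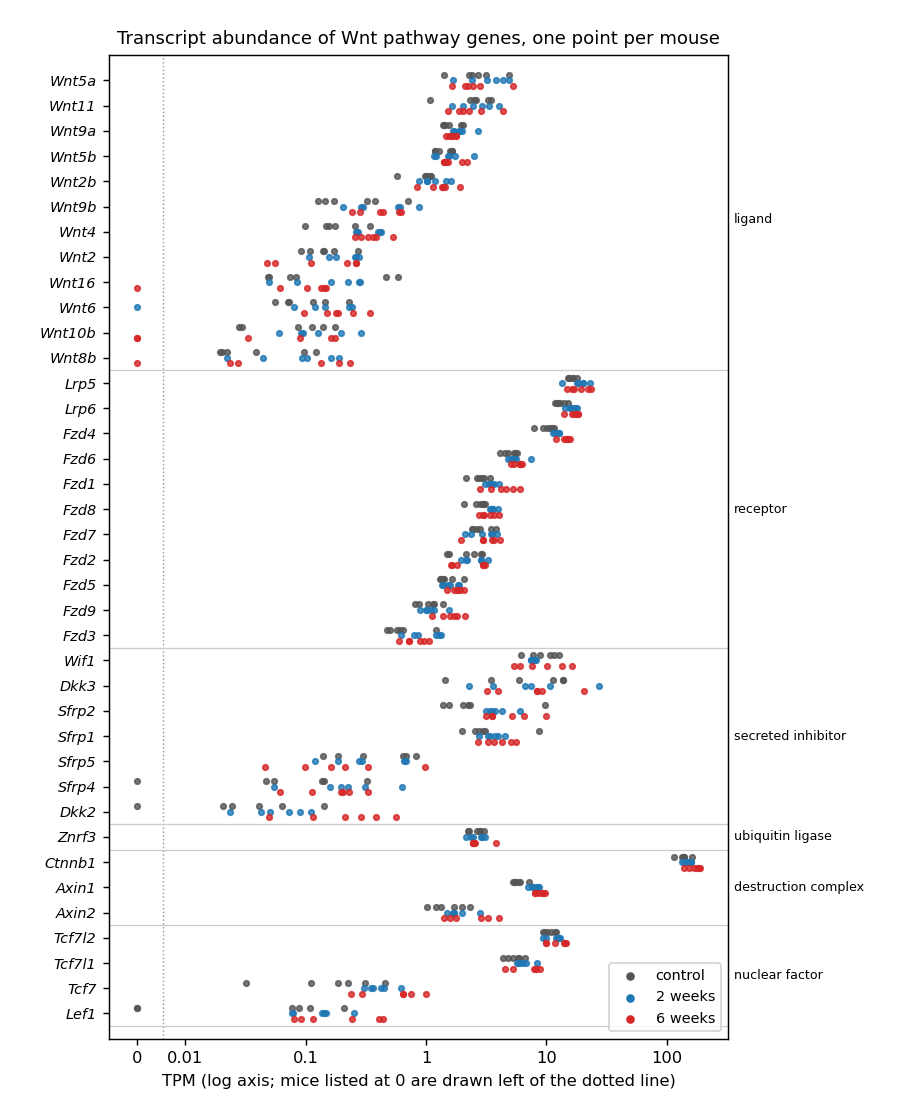
Level of each of the 38 Wnt pathway genes in TPM on a log axis, grouped by role, with 1 point per mouse coloured by group; mice listed at 0 are drawn left of the dotted line. Ctnnb1 lies apart at a mean of 151 TPM, and most ligands lie below 3 TPM.

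The 11 genes below the level filter were 7 ligands (Wnt1, Wnt3, Wnt3a, Wnt7a, Wnt7b, Wnt8a and Wnt10a), the receptor Fzd10, the inhibitors Dkk1 and Dkk4, and the ubiquitin ligase Rnf43. Their highest count in any mouse was 6, in Rnf43, and expression of these genes was not measurable at this depth. At the edge of the filter, Rnf43 reached 0.23 CPM in 5 mice and was left out, whereas Wnt16 reached it in 7 mice and Wnt10b in 8 mice and were kept.

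Few members of the pathway passed the test after radiation. At 2 weeks 0 of 38 passed an adjusted P of 0.05 in edgeR's quasi-likelihood test against controls, where 5.02% of all tested genes did. At an unadjusted P under 0.05 there were 3 members (Wnt4, Wif1 and Axin1), beside 20.4% of all genes, and DESeq2 called 1, Axin1. At 6 weeks 4 of 38 members were called, Dkk2 and Tcf7 higher and Wnt5a and Znrf3 lower, which is 10.5% of the members beside 25% of all tested genes (13.5% higher and 11.5% lower). An absolute log2 fold change above 1 was reached in addition by Dkk2 and Tcf7, beside 5.95% of all genes, and 8 members had an unadjusted P under 0.05, beside 36.2%. Between 6 and 2 weeks 1 member was called, Dkk2, which was higher, beside 5.33% of all genes (3.31% higher and 2.01% lower). Its log2 fold change was above 1, as in 1.14% of all genes, and 5 members had an unadjusted P under 0.05, beside 21.3%. The median log2 fold change of the members was 0.03 at 2 weeks and -0.09 at 6 weeks, where that of all tested genes was -0.0015 and -0.019. Groups did not overlap in any mouse for 1 member at 6 weeks, Wnt9a, beside 9.23% of all genes, for 0 members at 2 weeks, beside 3.24%, and for 0 members between the irradiated groups, beside 3.54%.

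**Figure D2:**
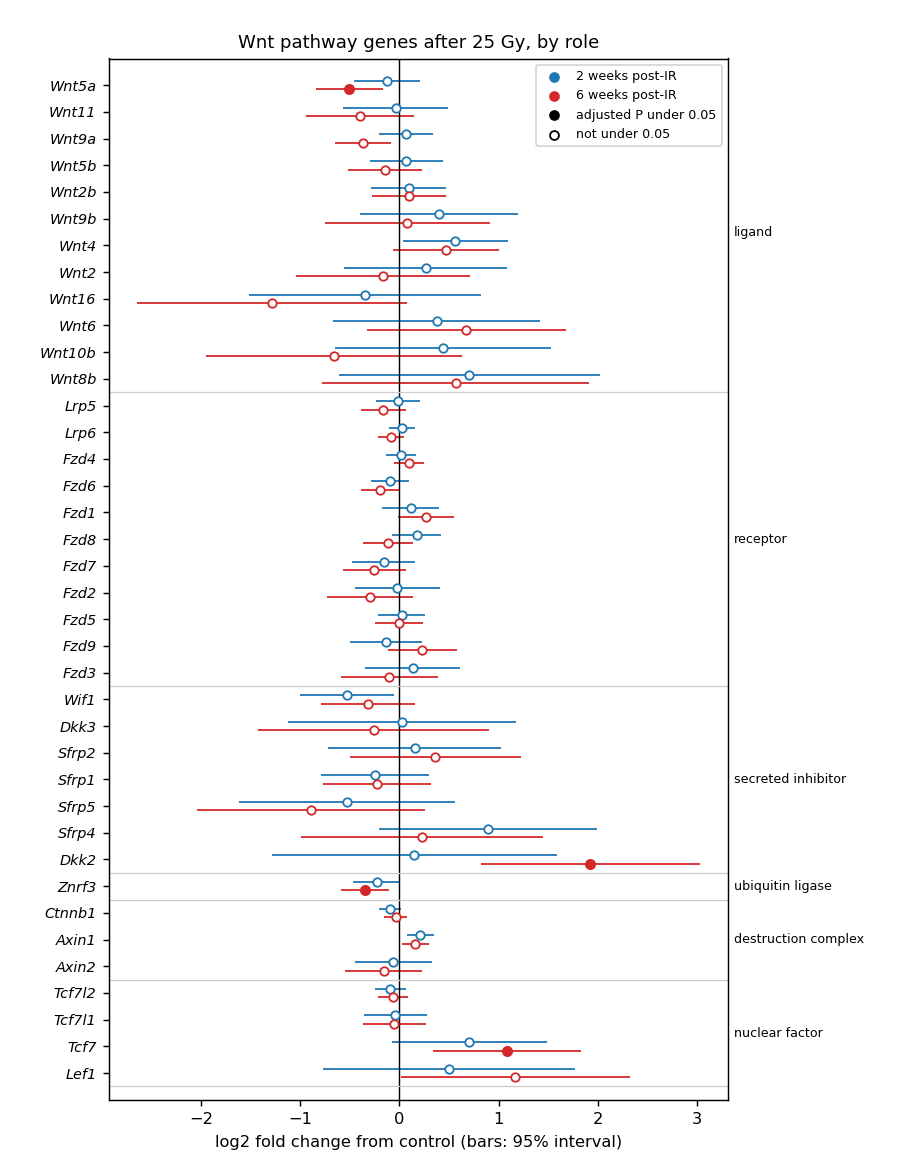
Log2 fold change from control with its 95% interval for the 38 members at 2 weeks (blue) and 6 weeks (red) after radiation, by role; filled points passed an adjusted P of 0.05. The filled points are Wnt5a, Dkk2, Znrf3 and Tcf7 at 6 weeks, receptors cluster near 0, and intervals widen for genes of low level.

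Among the ligands, Wnt5a, best known for beta-catenin-independent signaling, was lower at 6 weeks. It lies on the plus strand of chromosome 14 (chr14:28504750-28527448, GRCm38). Its lowest, median and highest levels were 8.24, 11.4 and 17.7 CPM in controls, 7.55, 11.7 and 13.8 CPM at 2 weeks and 7.36, 8.62 and 10.2 CPM at 6 weeks. Of the 6-week mice, 3 were below every control and the other 3 overlapped with them. It fell by 0.51 on the log2 scale at 6 weeks (SE 0.162, 95% interval -0.85 to -0.17, adjusted P = 0.0279), against -0.13 at 2 weeks (adjusted P = 0.709), and 6 weeks against 2 weeks gave -0.38 (adjusted P = 0.179). The call was lost without control mouse 2 or 6 or 6-week mouse 2, 3 or 5 (log2 fold change -0.48 to -0.37, adjusted P = 0.0545 to 0.0828), and with library-size scaling the value was -0.24 (adjusted P = 0.251). On the log2(TPM + 1) scale Wnt5a was at -0.03 (adjusted P = 0.918). The fibroblast list beside it summed to 447 to 1340 TPM in controls and 689 to 929 TPM at 6 weeks with 1 of 8 genes called, Pdgfra, lower, and the part of these cells in the Wnt5a value was not tested.

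The other ligands did not pass the test at either time. Wnt9a came closest, with a lowest, median and highest level of 4.76, 5.14 and 7.33 CPM in controls, 4.62, 5.5 and 7.65 CPM at 2 weeks and 3.88, 4.15 and 4.65 CPM at 6 weeks. Every 6-week mouse was below every control mouse, yet the log2 fold change of -0.37 missed the threshold (95% interval -0.65 to -0.09, adjusted P = 0.0516). It passed when any one of control mouse 4, control mouse 5, 2-week mouse 1 or 2-week mouse 4 was left out (adjusted P = 0.0284 to 0.0498), and leaving out any other mouse gave no call, with values up to -0.26 (adjusted P = 0.144). With library size only Wnt9a was at -0.11 (adjusted P = 0.58), and with TPM its sign turned, to 0.02 and 0.03 (adjusted P = 0.874 and 0.857). Wnt4, a ligand of kidney and gonad development, had log2 fold changes of 0.56 at 2 weeks (adjusted P = 0.213) and 0.47 at 6 weeks (adjusted P = 0.198). At 6 weeks Wnt4 was called higher with library size only (0.72, adjusted P = 0.0376), TPM + 1 (0.18, adjusted P = 0.0256) and TPM + 0.1 (0.65, adjusted P = 0.0183). Wnt11, which acts in heart development mainly outside beta-catenin, had -0.04 and -0.40 (adjusted P = 0.954 and 0.294). Wnt5b, Wnt2b and Wnt9b lay between -0.15 and 0.40 at both times. Wnt2, Wnt6, Wnt8b, Wnt10b and Wnt16 had group medians between 0.0894 and 0.347 CPM, around the floor of 3 counts. Their 6-week values, from -1.28 for Wnt16 to 0.67 for Wnt6, carried intervals that all included 0, so neither a change nor its absence was shown for these genes.

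With TMM scaling, none of the 11 receptors passed the test in any comparison, and their log2 fold changes stayed within -0.16 to 0.17 at 2 weeks and -0.30 to 0.27 at 6 weeks. Lrp5, the co-receptor with the highest level, had a lowest, median and highest level of 79.3, 91.5 and 93.1 CPM in controls, 63, 91.9 and 104 CPM at 2 weeks and 69.1, 75.3 and 99.2 CPM at 6 weeks. Its 6-week interval ran from -0.39 to 0.06 around -0.16 (adjusted P = 0.295). The related Lrp6 was measured more tightly, at 0.03 (-0.10 to 0.16) at 2 weeks and -0.08 (-0.21 to 0.05) at 6 weeks. Fzd4, a receptor of the endothelium, had 0.09 at 6 weeks (-0.06 to 0.25, adjusted P = 0.385). Of 8 endothelial markers 2 were called higher at 6 weeks, Pecam1 and Cdh5, and 2 lower, Tie1 and Tek, with a median log2 fold change of 0.03, and their summed level was 1030 to 1480 TPM in controls and 1460 to 1820 TPM at 6 weeks. Fzd6 reached -0.19 (adjusted P = 0.137), Fzd1 0.27 (adjusted P = 0.169), Fzd7 -0.25 (adjusted P = 0.255) and Fzd2 -0.30 (adjusted P = 0.326) at 6 weeks. Fzd3, Fzd5, Fzd8 and Fzd9 had 6-week values between -0.11 and 0.23. These values rest on TMM scaling (trimmed mean of M-values), which assumes that most genes do not change. With library size only and with both TPM scales Lrp6, Fzd1, Fzd4 and Fzd9 were called higher at 6 weeks, where the median of all genes was 0.24 with library size only and 0.29 with TPM + 1. Fzd4 then reached 0.36 to 0.50, Fzd1 0.48 to 0.60, Fzd9 0.34 to 0.55 and Lrp6 0.18 to 0.37. With TPM, Lrp6, Fzd4 and Fzd8 were also called higher at 2 weeks. Without 6-week mouse 3, Fzd1 was called with TMM (0.37, adjusted P = 0.0263).

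Dkk2, a secreted protein that binds Lrp5 and Lrp6 and modulates their response to Wnt ligands, had the largest log2 fold change of the 38 members at 6 weeks. It lies on the plus strand of chromosome 3 (chr3:132085292-132180304, GRCm38) and no other annotated gene overlaps it. Counts were few: control mice 1 to 6 had 2, 3, 1, 7, 1 and 0 counts, 2-week mice 2, 3, 4, 5, 2 and 1, and 6-week mice 5, 15, 19, 2, 8 and 10. In CPM, the lowest, median and highest levels were 0, 0.111 and 0.486 among controls, 0.0733, 0.194 and 0.327 in the 2-week group and 0.148, 0.698 and 1.47 in the 6-week group. The 6-week mice 2, 3, 5 and 6 exceeded every control mouse, whereas mice 1 and 4 lay inside the control range. Mean levels were 0.172 ± 0.174 CPM in controls and 0.726 ± 0.486 CPM at 6 weeks (SD, n = 6), a fold change of 3.8 (95% interval 1.77 to 8.16). On the log2 scale this was 1.93 (SE 0.533, adjusted P = 0.0101), against 0.15 at 2 weeks (SE 0.694, adjusted P = 0.933). The 6-week level was also above the 2-week level, by 1.78 (SE 0.508, adjusted P = 0.0437).

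The 6-week change of Dkk2 against controls passed the test in all 32 alternatives that gave a value, with adjusted P between 0.00121 and 0.0341. These alternatives reuse the same few counts, and their log2 fold changes ran from 0.26 to 2.58, TPM scales included. Requiring 0.23 CPM in at least 13 mice removed Dkk2 and gave no value. Its filter status depended on the 6-week group, since 5 of the 9 mice at 0.23 CPM or more were 6-week mice. The call against 2 weeks was less firm: leaving out any one of 12 mice (control mouse 2 or 5, any 2-week mouse, or 6-week mouse 2, 3, 5 or 6) gave adjusted P = 0.0512 to 0.112, and the replicate number as a block gave 0.0522. The mice with the highest Dkk2 at 6 weeks, mice 2 and 3, also had the highest sums of Myl7, Sln, Nppa and Scx in that group, 1299 and 1328 TPM, and mouse 4, the lowest in Dkk2, had the lowest sum, 133 TPM. With the log2 sum of these genes as a covariate, chosen after seeing the data, the log2 fold change was 2.05 (adjusted P = 0.00121). Within groups the correlation of Dkk2 with this sum was 0.69 in controls, -0.454 at 2 weeks and 0.957 at 6 weeks, which 1 shared covariate does not describe. Neither the covariate fit nor these correlations measure the amount of atrial or border tissue, and its part in the Dkk2 value was not tested.

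The 250 bases before the start of Dkk2 are shown because this gene had the largest fold change, and those before Axin2 because it is a textbook target of beta-catenin and serves below as a readout. They are the RefSeq sequences on GRCm38.p6, plus strand, 5′ to 3′, at chr3:132085042-132085291 and chr11:108920099-108920348, and capitals mark the TATA box letters TATAAA, which begin at position -32 of Dkk2.
Dkk2: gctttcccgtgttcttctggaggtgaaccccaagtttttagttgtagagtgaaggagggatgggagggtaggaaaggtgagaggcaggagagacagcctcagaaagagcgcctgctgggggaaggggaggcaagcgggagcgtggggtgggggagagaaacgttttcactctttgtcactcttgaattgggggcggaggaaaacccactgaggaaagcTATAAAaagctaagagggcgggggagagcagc
Axin2: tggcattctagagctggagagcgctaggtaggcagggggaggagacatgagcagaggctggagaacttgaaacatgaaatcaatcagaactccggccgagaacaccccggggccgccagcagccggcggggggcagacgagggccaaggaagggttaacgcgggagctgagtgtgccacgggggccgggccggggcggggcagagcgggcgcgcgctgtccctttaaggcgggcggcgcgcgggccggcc
The letters TATAAA stand in 12.4% of all 32851 windows of 250 bases before a RefSeq start, counted on either strand, and this motif was chosen after the sequence was seen. The TCF/LEF core CTTTGA, searched on either strand, is in neither window and in 13.8% of all windows. GC content was 55.6% for Dkk2 and 69.2% for Axin2, and 26 of the 38 members had at least one such window.

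The other secreted inhibitors did not pass the test at either time. Wif1, which binds Wnt ligands directly, ranged over 13.7, 21.1 and 26.4 CPM (lowest, median and highest) in controls, 12.6, 14.7 and 15.8 CPM at 2 weeks and 9.79, 14.5 and 30 CPM at 6 weeks. Most irradiated mice lay below the control median, with 6-week values spread on both sides of it. The log2 fold change was -0.53 at 2 weeks (95% interval -1.01 to -0.05, adjusted P = 0.195) and -0.32 at 6 weeks (adjusted P = 0.338), and without 6-week mouse 5 the latter became -0.56 (adjusted P = 0.0406). With only controls and 2-week mice in the fit, Wif1 was called lower at 2 weeks (-0.53, adjusted P = 0.0363). Sfrp1 and Sfrp2, decoys that share the ligand-binding domain of frizzled receptors, were both highest in control mouse 4, at 38.4 and 20.7 CPM. The control medians were 13.6 and 4.34 CPM. With all mice, the 6-week log2 fold change of Sfrp2 was 0.36 (-0.50 to 1.22, adjusted P = 0.575), and without control mouse 4 it was 1.12 (adjusted P = 0.00771). For Sfrp1, the 6-week value was -0.22 (adjusted P = 0.585). Control mouse 4 also had the highest sum of the border genes, 2444 TPM, and the lowest cardiomyocyte sum, 24614 TPM, of all mice. Its fibroblast sum, 1342 TPM, was the highest of all mice, and its macrophage sum, 366 TPM, the highest of the controls. The part of any of these cells in the Sfrp1 and Sfrp2 values was not tested.

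Dkk3, a divergent member of its family, varied more within groups than any other member, with a within-group SD of 1.12 on the log2 CPM scale. It ranged from 4.72 to 40.7 CPM in controls, 5.8 to 72.9 CPM at 2 weeks and 8.38 to 49.1 CPM at 6 weeks. Its 6-week log2 fold change of -0.26 therefore carried an interval from -1.42 to 0.90. Sfrp5 and Sfrp4 were low and wide, at -0.89 (-2.04 to 0.26) and 0.23 (-0.99 to 1.45) at 6 weeks. Without 6-week mouse 2, Sfrp5 stood at -1.72 (adjusted P = 0.0264).

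**Figure D3:**
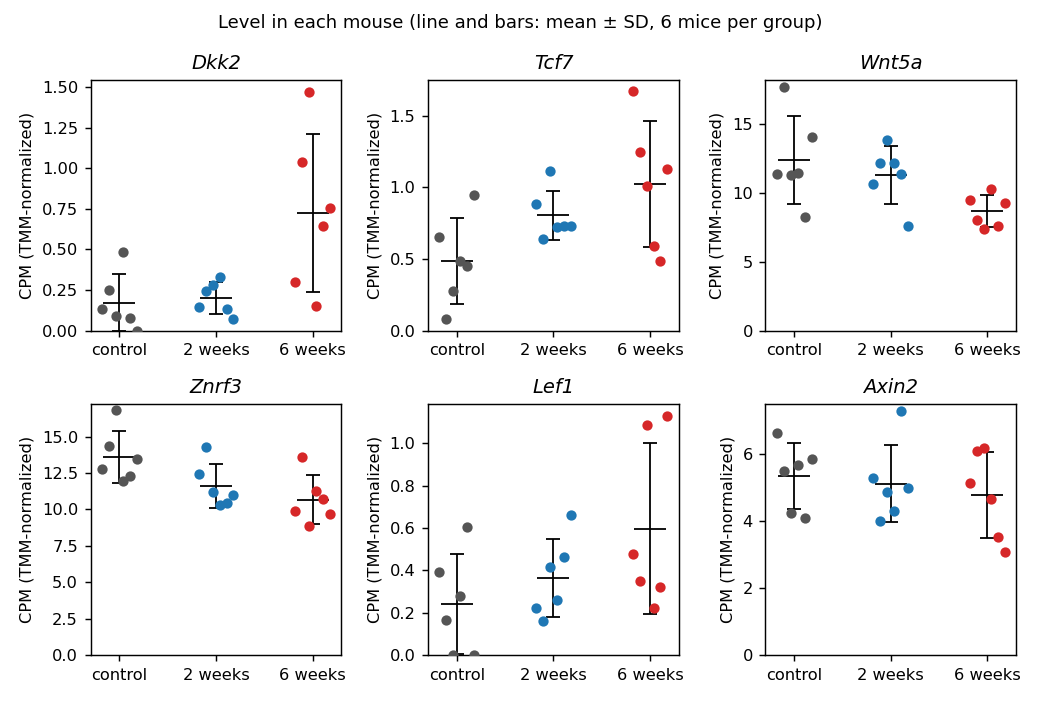
Level of Dkk2, Tcf7, Wnt5a, Znrf3, Lef1 and Axin2 in each mouse (TMM-normalized CPM on linear axes from 0; line and bars are mean ± SD of 6 mice). Dkk2 is above every control in 4 of the 6-week mice, of the 6-week mice 5 lie below every control in Znrf3 and 3 in Wnt5a, and Axin2 overlaps across all groups.

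Znrf3, the ubiquitin ligase that clears frizzled receptors and is itself a known beta-catenin target, was lower at 6 weeks. It lies on the minus strand of chromosome 11 (chr11:5276324-5444847, GRCm38). The lowest, median and highest levels were 11.9, 13.1 and 16.8 CPM in controls, 10.3, 11.1 and 14.3 CPM at 2 weeks and 8.83, 10.3 and 13.6 CPM at 6 weeks. In the 6-week group 5 mice were below the control range and 1 overlapped with it. The 6-week log2 fold change was -0.35 (SE 0.114, 95% interval -0.58 to -0.11, adjusted P = 0.0323), after -0.23 at 2 weeks (adjusted P = 0.266). The direction depended on the scaling: it was -0.08 with library size only and 0.02 to 0.03 on both TPM scales, none of which passed the test. Leaving out control mouse 2, 3 or 6 or 6-week mouse 1, 3 or 6 also took away the call (adjusted P = 0.0539 to 0.0907). Cardiomyocyte markers, 7 of 8 lower at 6 weeks, moved the same way, and their part in the Znrf3 value was not tested.

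Axin2 and Ctnnb1 did not pass the test. Axin2, which beta-catenin induces in nearly every tissue as a negative feedback, ranged over 4.08, 5.59 and 6.64 CPM in controls, 4.01, 4.93 and 7.29 CPM at 2 weeks and 3.09, 4.9 and 6.2 CPM at 6 weeks. All 3 groups overlapped over most of their range. Its log2 fold change was -0.06 at 2 weeks (95% interval -0.45 to 0.32, adjusted P = 0.891) and -0.16 at 6 weeks (-0.55 to 0.23, adjusted P = 0.585) after TMM scaling. Its 6-week direction turned with the scaling: 0.10 with library size only (adjusted P = 0.718), 0.39 with TPM + 1 (adjusted P = 0.0744) and 0.56 with TPM + 0.1 (adjusted P = 0.0774), none of them called. Ctnnb1 transcripts had a lowest, median and highest level of 382, 425 and 443 CPM in controls, 368, 400 and 419 CPM at 2 weeks and 364, 416 and 432 CPM at 6 weeks. The 6-week value of -0.04 (-0.15 to 0.08, adjusted P = 0.673) refers to TMM scaling, and with library size only, which moved all genes by a median of 0.24, it was 0.23 (adjusted P = 0.012). RNA levels do not report the stability of the beta-catenin protein, which is the regulated step. Axin1, the constitutive scaffold, had 0.21 at 2 weeks (0.07 to 0.35, adjusted P = 0.0665) and 0.16 at 6 weeks (0.02 to 0.30, adjusted P = 0.0829), and without control mouse 1 it passed at both times (0.24 and 0.19, adjusted P = 0.0402 and 0.0449). With library size only and both TPM scales Axin1 was called higher at both times, at 0.36 to 0.44 and 0.42 to 0.59. The median of all genes was then 0.15 and 0.24 with library size only and 0.18 and 0.29 with TPM + 1.

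Among the nuclear factors, Tcf7 (also known as TCF1), a factor of T cells as well as of Wnt-responsive tissue, was higher at 6 weeks. It lies on the minus strand of chromosome 11 (chr11:52252371-52283014, GRCm38). The lowest, median and highest levels were 0.0833, 0.47 and 0.949 CPM in controls, 0.642, 0.731 and 1.11 CPM at 2 weeks and 0.483, 1.07 and 1.67 CPM at 6 weeks, from 1 to 11 counts in controls and 6 to 28 counts at 6 weeks. Of the 6-week mice, 4 exceeded every control and the rest overlapped with them. The fold change was 2.12 (95% interval 1.27 to 3.55), or 1.08 on the log2 scale (SE 0.354, adjusted P = 0.0316), after 0.70 at 2 weeks (adjusted P = 0.3). Leaving out control mouse 2, 3 or 5 or 6-week mouse 1, 2 or 6 gave 0.86 to 1.07 with adjusted P = 0.0548 to 0.0969. Lef1, its relative and also a lymphocyte gene, ranged over 0, 0.222 and 0.605 CPM in controls, 0.16, 0.339 and 0.66 CPM at 2 weeks and 0.222, 0.412 and 1.13 CPM at 6 weeks. Its 6-week value of 1.17 (0.02 to 2.32) did not pass after adjustment (adjusted P = 0.133).

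Genes of T and NK cells summed to between 0.954 and 2.05 TPM in controls, 0.976 and 3.74 TPM at 2 weeks and 3.56 and 10.4 TPM at 6 weeks. The 6-week range did not overlap with that of controls, and 2 of the 5 tested genes of this list of 8 were called higher, Cd8a and Nkg7. B-cell genes summed to 0.321 to 0.666 TPM in controls and 1.12 to 2.67 TPM at 6 weeks. The part of lymphocytes in the Tcf7 and Lef1 values was not tested. Tcf7l2 and Tcf7l1, the factors with the highest levels in this tissue, did not pass the test. Tcf7l2 had 26.9, 27.7 and 30.8 CPM (lowest, median and highest) in controls, 24.1, 26.3 and 31.2 CPM at 2 weeks and 22.7, 28.1 and 29.5 CPM at 6 weeks, a log2 fold change of -0.06 at 6 weeks (-0.22 to 0.09). Tcf7l1 was at -0.05 (-0.37 to 0.27). Antisense genes overlap Wnt5a, Tcf7, Axin2, Ctnnb1, Lef1, Sfrp2, Wnt6 and Tcf7l1 in the annotation. Protein-coding genes on the opposite strand overlap Wnt5b (Fbxl14, 5694 counts over all mice) and Ctnnb1 (Ulk4, 549 counts). Whether counting used strand is not given in the sources used here, so reads of such partners could not be told apart from those of the members.

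**Figure D4:**
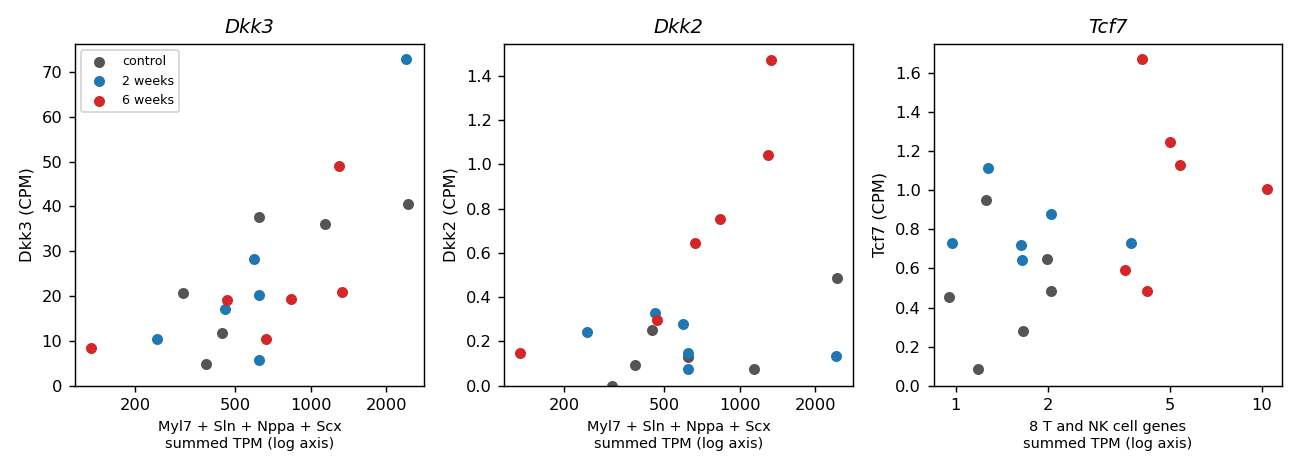
Levels of Dkk3 and Dkk2 against the summed TPM of Myl7, Sln, Nppa and Scx, and of Tcf7 against the summed TPM of 8 T and NK cell genes, with 1 point per mouse (CPM on linear axes from 0, TPM on log axes). The 6-week mice with the most Dkk2 have sums of 1299 and 1328 TPM, and all 6-week mice lie at or above 3.56 TPM of T and NK cell genes.

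A list of 79 other pathway genes, chosen by function, was counted in the same way, and 73 of them passed the level filter. At 2 weeks 3 were called, all higher (4.11%, beside 5.02% of all genes). At 6 weeks 10 were called, 4 higher and 6 lower (13.7%, beside 25% of all genes), and between 6 and 2 weeks 6 were called, 2 higher and 4 lower (8.22%, beside 5.33%). The largest of these changes was that of Ccnd1, cyclin D1, which drives entry into the cell cycle and is under the control of many growth signals besides beta-catenin. Its level was 25.2 ± 5.2 CPM in controls, 78.5 ± 12 CPM at 2 weeks and 129 ± 21.8 CPM at 6 weeks (SD, n = 6), and no mouse of one group overlapped with another group. The 2-week mice were higher than controls by 1.64 on the log2 scale (SE 0.141, adjusted P = 1.06e-06) and the 6-week mice by 2.35 (SE 0.143, adjusted P = 7.18e-09), and the 2 times differed by 0.71 (adjusted P = 0.0077). All 33 alternatives kept these calls of Ccnd1.

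Of the 5 tested transcripts listed only as beta-catenin targets, Ccnd1 and Myc were called. Myc, a growth regulator also induced by many signals, ranged over 2.24, 3.68 and 5.55 CPM (lowest, median and highest) in controls, 4.09, 4.61 and 6.46 CPM at 2 weeks and 6.2, 7.78 and 12.5 CPM at 6 weeks. Every 6-week mouse exceeded every control (log2 fold change 1.08, adjusted P = 0.000866), and the 2-week value was 0.30 (adjusted P = 0.471). The target list also held the members Tcf7, called higher at 6 weeks (1.08, adjusted P = 0.0316), and Lef1, not called (1.17, adjusted P = 0.133). Among targets that act as feedback inhibitors or mark Wnt-responsive stem cells, Znrf3 was called lower at 6 weeks, and Axin2 was not called. Nkd1 had 0.17 at both times (adjusted P = 0.641 and 0.547), Notum 0.09 and 0.28 (adjusted P = 0.926 and 0.634) and Lgr5 0.35 and -0.17 (adjusted P = 0.734 and 0.853), none of them called. Notum and Lgr5 were near the floor of 3 counts, with group medians between 0.26 and 0.362 CPM, whereas Nkd1 had medians between 2.06 and 2.49 CPM.

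The genes for secretion of the ligands did not pass the test. Porcn, which attaches the lipid to Wnt proteins, had -0.22 and -0.26 at 2 and 6 weeks (adjusted P = 0.472 and 0.282), and Wls, which carries them to the surface, had -0.07 and 0.03 (adjusted P = 0.639 and 0.813). In the destruction complex, Gsk3b had -0.01 and -0.03 and Apc -0.04 and -0.09, with 6-week intervals of -0.12 to 0.06 and -0.20 to 0.02. Frzb, a secreted decoy related to Sfrp proteins, had -0.03 and 0.52 (adjusted P = 0.962 and 0.146). Of 16 nuclear genes 4 were called at 6 weeks, 1 higher and 3 lower (25%, beside 25% of all genes). The higher gene was Tle3, a co-repressor of TCF factors. Its 2-week value was 0.33 (SE 0.0721, adjusted P = 0.0135) and its 6-week value was 0.53 (SE 0.072, adjusted P = 4.12e-05). In the planar polarity group 4 of 16 were called at 6 weeks, 1 higher and 3 lower, again 25% beside 25%. Prickle1, a core polarity protein, was lower by every mouse against every control (-0.67, SE 0.137, adjusted P = 0.00146). Its call was lost in 2 of 33 alternatives, which gave values from -0.73 to -0.21 and adjusted P up to 0.168. Ptk7, a receptor-like pseudokinase, was higher (0.96, SE 0.298, adjusted P = 0.023) with overlapping groups. The Ptk7 call was lost without control mouse 6 or 6-week mouse 1 or 6 and in 3 further alternatives, among 33 with adjusted P from 0.00118 to 0.0824. Rspo1, a secreted potentiator of the pathway that binds Lgr receptors, was lower at 6 than at 2 weeks (-1.51, SE 0.412, adjusted P = 0.041), with medians of 0.636 CPM in controls, 0.99 CPM at 2 weeks and 0.389 CPM at 6 weeks. Against controls it passed the test at neither time (0.61 and -0.90, adjusted P = 0.371 and 0.168), and the call between times was lost in 14 of 33 alternatives.

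**Figure D5:**
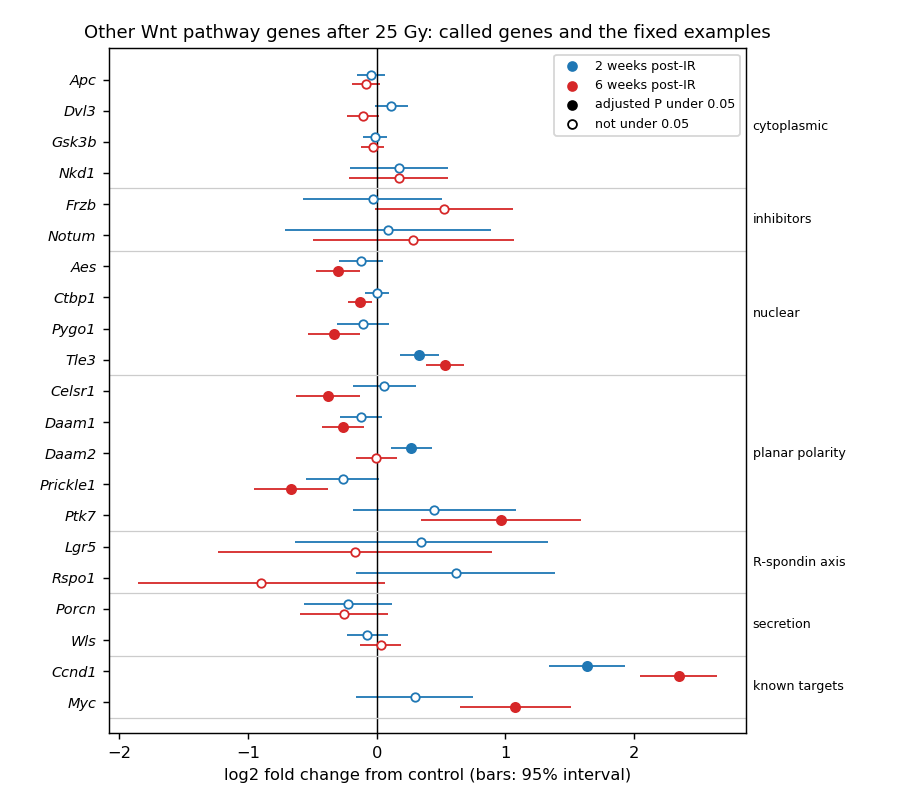
Log2 fold change from control with its 95% interval for other pathway genes that were called in any comparison and for 10 genes shown whatever their result, at 2 weeks (blue) and 6 weeks (red); filled points passed an adjusted P of 0.05. Ccnd1 stands at 1.64 and 2.35, while Gsk3b, Apc, Wls and Nkd1 lie near 0.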

How the data were processed

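RNA of 18 hearts was sequenced as individual libraries by the authors, who used STAR on GRCm38, Salmon (1.0 in the submitters' processing notes, which also list CASAVA 1.8) and tximport. The deposited estimated counts, 28.4% of them not whole, are per Ensembl gene and were not normalized across mice. TPM values deposited by the authors come from the same quantification and are scaled for transcript length within each mouse. They were used for levels between genes and as an alternative.

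Rounded counts were tested with edgeR 4.0.16 under R 4.3.3 (TMM scaling, glmQLFit with legacy = FALSE, two-sided quasi-likelihood F tests). All 18 mice entered 1 fit over 15054 genes, with Benjamini-Hochberg adjustment over all of them in each comparison. A call is an adjusted P under 0.05. The SE is the absolute log2 fold change over the square root of F, and CPM values are TMM-normalized. Groups came from the sample labels, and each mouse is 1 replicate. Total counts per mouse are given with the results, and a floor from counts covers counting error alone. The code was tested on simulated counts. Symbols were found for 29301 IDs, and 771 had none. GENCODE M21 gave the GRCm38 coordinates. The members and lists were chosen with earlier results of these data known. Values in each group are given for members called in any comparison, for Axin2, Ctnnb1 and Lef1 and for the most abundant member of each role. Other pathway genes are named if called with an absolute log2 fold change above 0.5, or if among 10 set examples (Porcn, Wls, Gsk3b, Apc, Frzb, Nkd1, Notum, Lgr5, Myc and Ccnd1). Ranges of Wnt9a, Dkk3, Sfrp1 and Sfrp2 were added after their values were seen. Alternatives covered DESeq2 1.42.0, limma 3.58.1 (voom with and without sample quality weights, and TPM with pseudocounts 1 and 0.1), scaling, filters, thresholds, Y-linked expression as a covariate, the replicate number as a block, pairs of groups alone and each mouse left out.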

Additional observations from a re-analysis of the deposited data

Results flagged for a closer look

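A mouse far from the rest of its group was found in 13 of the 114 groups of 6 mice (38 members by 3 groups), where chance flags about 1 in 20, or 5.7. The measure is the gap from the extreme mouse to its nearest neighbour as a share of the range of the group. In controls the highest mouse stood apart for Sfrp2 (0.876) and Sfrp1 (0.835), both mouse 4, for Wnt5b (0.674), for Fzd3 (0.666) and for Wnt9a (0.65), and the lowest stood apart for Tcf7l1 (0.733) and Lrp5 (0.706), both mouse 1. At 2 weeks the highest mouse stood apart for Wnt9a (0.688), Dkk3 (0.666), Tcf7l2 (0.656) and Sfrp2 (0.652). At 6 weeks it was the same mouse, mouse 2, for Sfrp5 (0.723) and Dkk3 (0.69). The Dkk3 mouse at 2 weeks, mouse 5, had 72.9 CPM where its nearest neighbour had 28.2 CPM, and its sum of atrial and border genes, 2405 TPM, was the highest of its group.

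The change from controls differed between 6 and 2 weeks, by the direct test of the 2 irradiated groups, for 7 of 111 members and other pathway genes, or 6.31%, beside 5.33% of all genes. The difference in log2 fold change was 1.78 for Dkk2, 0.71 for Ccnd1, 0.78 for Myc, -1.51 for Rspo1, -0.44 for Celsr1, -0.27 for Daam2 and -0.22 for Dvl3. Daam2, a formin of the polarity branch, was called higher at 2 weeks (0.27, adjusted P = 0.0431) and did not pass the test at 6 weeks (adjusted P = 0.979). Of 33 alternatives, its 2-week call was lost in 12 and its call between the times in 16. Celsr1, a polarity cadherin, was at 0.06 at 2 weeks and called lower at 6 weeks (-0.38, adjusted P = 0.0255). Its 6-week call was lost in 8 and its call between the times in 12 alternatives, and that of Myc between the times in 8. Dvl3, a relay of frizzled receptors, was called against controls at neither time.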

How the results depend on the processing

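At 2 weeks the count of 0 called members became 1 at an adjusted P under 0.10, with DESeq2, with library size only and with the pair of groups alone, and 4 with TPM at either pseudocount, all higher except in the pair fit. Leaving out a mouse gave 0 to 1. At 6 weeks the count of 4 became 2 with an absolute log2 fold change above 1, 10 with library size only, 9 with TPM + 1, 11 with TPM + 0.1 and 2 with the pair alone, and 1 to 6 without a mouse, 1 without control mouse 2. Between 6 and 2 weeks the count of 1 became 2 at an adjusted P under 0.10. It was 0 with both voom fits, with 0.23 CPM in at least 13 mice, without a level filter, with TPM at either pseudocount, with the pair alone, with the replicate block and with the earlier edgeR form (chosen after seeing the data), and 0 to 1 without a mouse.

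Library size only moved the all-gene median (log2) from -0.0015 to 0.15 at 2 weeks and from -0.019 to 0.24 at 6 weeks, and TPM + 1 moved it to 0.18 and 0.29. All members called there at 6 weeks were higher, where TMM gave 2 higher and 2 lower, and of all genes 5494 were called higher and 326 lower with library size only, beside 2029 and 1731 with TMM. Members with a positive value at 6 weeks numbered 28 of 38 with library size only and 14 with TMM, and relative to the shifted median the members' median of 0.17 was lower than that of all genes.

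The sign at 6 weeks differed from TMM for 14 members with library size only, 18 with TPM + 1 and 17 with TPM + 0.1. Where a call was involved, these were Ctnnb1 (0.23 with library size only, 0.29 with TPM + 1 and 0.29 with TPM + 0.1), Lrp6 (0.18, 0.35 and 0.37), Tcf7l2 (0.20 with library size only) and Znrf3 (0.0212 with TPM + 1 and 0.0261 with TPM + 0.1, where it was not called). Over 3741 values of single members under an alternative, 93 changed their call and 9 of these turned direction, and 204 uncalled values changed sign. In at least 1 comparison 31 of 38 members changed sign. The cause was not tested. The replicate number followed sex: in every group mice 1 to 3 were those with fewer than 30 Y-linked counts. Of 18 same-numbered pairs 2 had a correlation of deviations over 0.1 (range -0.0828 to 0.106), and 3 mice matched best with their own number. The median correlation was 0.033 for the same number and -0.015 for other numbers. Such weak correlations cannot exclude that same-numbered mice were paired. As a block, the replicate number gave 0, 4 and 0 calls. Depth limits the low ligands, Dkk2, Tcf7, Lef1, Sfrp4 and Sfrp5, which rest on few counts per mouse.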

Other observations

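Over the 18 mice, with group means removed, the log2 level of each of the 38 members was set against the log2 sum of Myl7, Sln, Nppa and Scx, a relation looked for after the values were seen. Dkk3 gave the highest Pearson r, 0.701 (permutation P = 0.00283, adjusted over 38 members 0.108), with a Spearman rho of 0.736 (permutation P = 0.00143, adjusted 0.0543). Without the 2 mice farthest from the median of the sum, r was 0.596. Within groups r was 0.66 in controls, 0.74 at 2 weeks and 0.751 at 6 weeks, with 6 mice each. Dkk2 gave a Pearson r of 0.573 (permutation P = 0.0236, adjusted 0.149) and a Spearman rho of 0.408 (permutation P = 0.116, adjusted 0.32), and r was 0.58 without the 2 farthest mice. Within groups it was 0.69 in controls, -0.454 at 2 weeks and 0.957 at 6 weeks. For 0 of the 38 members did the Pearson P pass 0.05 after adjustment.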
